A study of Homo sapiens with 30 samples.

Results

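SAP30 is a small subunit of the SIN3 complex, a chromatin complex built on either of the scaffold proteins SIN3A and SIN3B. The regions described here are the promoters at which chromatin immunoprecipitation with sequencing (ChIP-seq) found SAP30 in MDA-MB-231 cells but neither scaffold protein by the same criterion. They were chosen by measured values. A SAP30 consensus region was built from peak summits of both SAP30 replicates, each extended by 500 bp at either side and merged. It was kept when it overlapped no consensus region of SIN3A and none of SIN3B, and when the span of its summits touched a 1000 bp margin around a start site, coding or of a long non-coding RNA (lncRNA) gene. Of 24796 SAP30 consensus regions, 13132 lay at promoters, and 2941 of those (22.4%) were SAP30-only promoters. The absence of SIN3A and SIN3B in these regions is therefore how they were selected and not a result.

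MDA-MB-231 is an established human triple-negative breast cancer cell line. The groups were the parental line and SAP30-KO1, in which SAP30 was knocked out with CRISPR/Cas9 and 1 guide RNA, and which was a mix of several single-cell knockout clones rather than 1 clone. SAP30, SIN3A and SIN3B were mapped in the parental line, and RNA polymerase II (Pol II), histone H3 trimethylated at lysine 4 (H3K4me3) and histone H3 acetylated at lysine 9 (H3K9Ac) in both lines, with 2 libraries for each target and line. No SAP30 list of SAP30-KO1 was used here, so these files give no check of the knockout at the protein or at its binding. The labels do not say whether the replicates came from separate cultures, so p-values measure only the spread between these libraries, which may be technical.

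SIN3A and SIN3B do not bind DNA themselves. They are known as corepressors that bring histone deacetylases HDAC1 and HDAC2 to promoters, and SAP30 is known to bind the scaffold directly. H3K4me3 marks the start of genes that are active or ready for transcription, H3K9Ac marks active promoters and enhancers, and Pol II at a start site is engaged or paused polymerase.

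Each of the 18 lists held between 10861 and 54622 summits. The SAP30 lists held 35001 and 35007, the SIN3A lists 11115 and 10861, and the SIN3B lists 26307 and 22298, so a weak SIN3A site had less room to appear in a list than a weak SAP30 site. The lists give a position and a score but no read counts, and the depth of the libraries is unknown. Peak strength is given below as a rank within a library's own list, where 0% is the best-scored summit and 100% the worst. Of the markers of the line, ESR1, GATA3, CDH1 and FOXA1 had no parental Pol II summit at their promoters, VIM, ZEB1, SNAI2, AXL and FN1 had one in both libraries, and so did the epithelial genes KRT8, KRT18 and EPCAM. The mesenchymal marker CDH2 had none.

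The promoter sequences of 4 genes that the study followed and that fell among the SAP30-only promoters, PDGFD, CLDN1, ADM2 and NOTCH3, are shown first because GC boxes, the commonest motif searched, recur in them to different degrees. A GC box (GGGCGG on either strand) is the known binding site of SP1 and related factors. Each run is the 100 bases just upstream of an annotated GENCODE start site, 5′ to 3′ on the gene's strand, in build GRCh37, with GC boxes in capitals. The start site used was the nearest to the SAP30 centre whose 100 upstream bases held no annotated untranslated bases. At PDGFD and ADM2 another start site of the gene lay closer to the SAP30 centre.
PDGFD, chr11:104035108-104035207, minus strand: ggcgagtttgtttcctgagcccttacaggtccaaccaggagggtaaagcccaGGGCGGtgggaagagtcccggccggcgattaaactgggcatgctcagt
CLDN1, chr3:190040236-190040335, minus strand: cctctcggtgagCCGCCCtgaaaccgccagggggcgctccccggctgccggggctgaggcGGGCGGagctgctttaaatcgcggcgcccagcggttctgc
ADM2, chr22:50919872-50919971, plus strand: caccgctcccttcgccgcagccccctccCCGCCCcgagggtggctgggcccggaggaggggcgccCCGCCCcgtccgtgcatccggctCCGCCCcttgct
NOTCH3, chr19:15311807-15311906, minus strand: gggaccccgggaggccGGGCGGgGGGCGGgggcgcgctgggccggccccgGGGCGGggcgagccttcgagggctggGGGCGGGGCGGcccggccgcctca
PDGFD had 1 GC box in this window, CLDN1 2, ADM2 3 and NOTCH3 5. The GC content ran from 60% at PDGFD through 74% at CLDN1 and 81% at ADM2 to 90% at NOTCH3, with 5, 12, 12 and 15 CG dinucleotides.

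Promoters of 3 genes without any of the searched motifs in the same window stand beside them, ARTN because its peaks went the other way from those of PDGFD, ENG because it was without all 3 marks in SAP30-KO1, and SUSD5 because it had the best-ranked lost Pol II peak.
ARTN, chr1:44398892-44398991, plus strand: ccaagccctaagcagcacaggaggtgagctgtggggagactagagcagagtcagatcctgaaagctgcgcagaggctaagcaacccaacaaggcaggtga
ENG, chr9:130616938-130617037, minus strand: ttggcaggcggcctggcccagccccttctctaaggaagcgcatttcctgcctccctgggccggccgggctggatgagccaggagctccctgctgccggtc
SUSD5, chr3:33260303-33260402, minus strand: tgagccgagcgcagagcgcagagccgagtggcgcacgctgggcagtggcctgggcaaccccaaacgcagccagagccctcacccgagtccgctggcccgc
ARTN had 1 CG dinucleotide and 57% GC, ENG 5 and 70%, and SUSD5 10 and 73%. The absence of a motif says only that these letters are not in the 100 bases. At ARTN and ENG, too, another start site of the gene lay closer to the SAP30 centre. The SAP30 centre of ARTN was at chr1:44399567, 83 bp from that start site, so the ARTN run is not the sequence at the SAP30 peak.

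SAP30 itself was weak at these promoters. The median SAP30 rank, averaged over both replicates, was 46.9% (interquartile range 34.8 to 62.8%), with the best region at 5.71% and the worst at 98.9%. It was 25.6% at the 4626 promoters with SAP30 and SIN3B and 9.36% at the 5399 promoters with all 3 proteins. When all SAP30 promoters were ordered by SAP30 rank and divided into quintiles, the best quintile held 5 SAP30-only promoters, the next ones 55, 216 and 737, and the weakest quintile 1928, which was 73.4% of that quintile. SAP30 rank and membership were thus bound together. Below, Pol II, the histone marks, CpG-island-like sequence and some motifs are also compared within quintiles of the SAP30 rank. The start sites, the other motifs, the gene lists and the chromosomes are not, and the part of SAP30 rank in those differences was not tested.

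**Figure D1:**
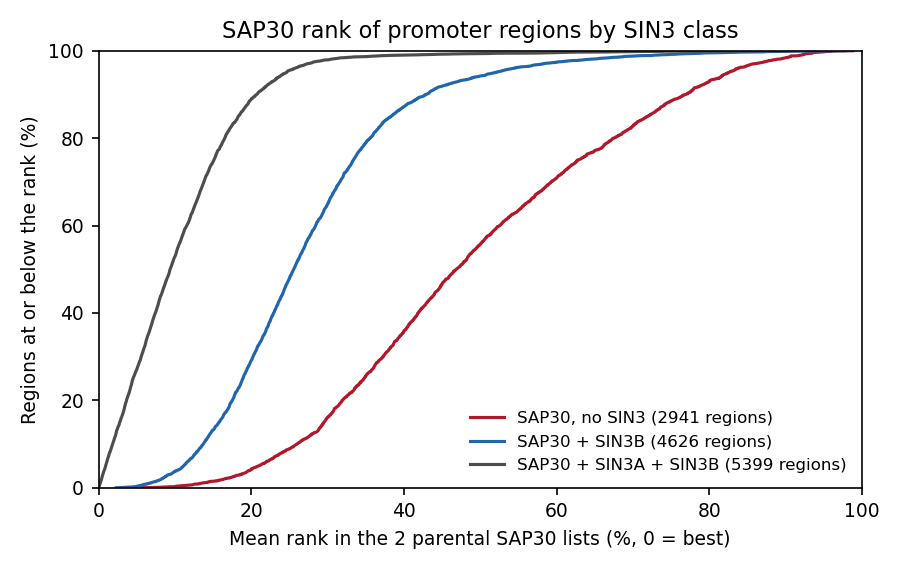
Cumulative percent of promoter regions (vertical axis) at or below each mean SAP30 rank over both parental replicates (horizontal axis, percent of the list with 0 the best), with 1 line for each promoter class. SAP30-only promoters (n = 2941) have a median of 46.9%, beside 25.6% with SIN3B and 9.36% with both SIN3 proteins.

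The best-ranked SAP30-only promoters were those of REEP4, SH3GLB2, AGMAT, ASS1, PAXIP1, TPST2, GMNC, RNF149, ZNF695 and RARA. ASS1 encodes argininosuccinate synthase of the urea cycle. Its SAP30 ranks were 8.32% and 8.18% (summits between chr9:133320291-133321066), none of the 4 SIN3 libraries had a summit there, and no Pol II summit was found in either line. RARA, the retinoic acid receptor alpha, had SAP30 ranks of 10.2% and 9.95% and no Pol II summit in any library. At REEP4, SAP30 ranked 2.29% and 9.14%, and the first replicate of SIN3A and of SIN3B each had a well-ranked summit (8.04% and 17.1%) that the other replicate lacked. These 3 promoters show that the strongest SAP30-only regions ranged from no SIN3 summit at all to a SIN3 summit in 1 replicate of both proteins.

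The regions had a median width of 1121 bp, where the extension of the summits set the lowest width at 1001 bp. The best summits of the 2 SAP30 replicates lay a median of 66 bp apart. The region centre lay a median of 142 bp from the nearest start site (interquartile range 54 to 333 bp), against 111 bp with SIN3B and 92 bp with both SIN3 proteins. It lay within 250 bp in 67.7%, 77% and 82.6%, and more than 500 bp away in 15.2%, 9.51% and 6.08%. A coding start site was present at 2261 SAP30-only promoters (76.9%), while 680 (23.1%) had only lncRNA start sites, against 10.9% of SAP30 and SIN3B promoters and 3.52% of those with all 3 proteins. Start sites of 2 or more genes were found at 16.1%, 29.7% and 40.6%, and coding starts on both strands at 2.38% (70 regions), 7.26% and 15.2%. SAP30-only promoters were thus more often single, farther from the start site and non-coding. These are descriptions, since the classes were drawn on the same SAP30 and SIN3 peaks.

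The word "only" rests on the rule that a SIN3 peak be present in both replicates. Single-replicate SIN3 summits fell into many of these regions. No SIN3 summit of any of the 4 libraries was found at 1579 SAP30-only promoters (53.7%), and at least 1 at 1362 (46.3%). SIN3A replicates 1 and 2 had a summit at 166 (5.64%) and 180 (6.12%), and SIN3B replicates 1 and 2 at 793 (27%) and 478 (16.3%). Both proteins were seen at 245 (8.33%). These single summits were weak, with median ranks of 69.7% and 64.8% in the SIN3A lists and 64.8% and 70.6% in the SIN3B lists. The promoters without any SIN3 summit also had weaker SAP30, with a median rank of 55.9% against 38.2%.

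Most SAP30-only promoters lay far from any SIN3 consensus region. The median gap was 51632 bp (interquartile range 17686 to 139179 bp), and 106 (3.6%) lay within 1000 bp. Just inside the threshold were RGS20, which encodes a regulator of G-protein signaling, with a gap of 1 bp, SLC35A5 with 3 bp and the lncRNA gene ENSG00000275437 with 10 bp. Just outside it were SH3RF2 and LIMK1, which encodes a kinase of the actin-regulating protein cofilin, whose SAP30 regions overlapped a SIN3B region by 1 and 3 bp. Of the regions with SIN3, 16 overlapped by 100 bp or less.

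The DNA of SAP30-only promoters was GC rich but, taken over all SAP30 ranks, less often a CpG island than that of the other SAP30 promoters. In a window of 501 bp at the SAP30 centre, the median GC content was 66.9% (interquartile range 57.5 to 73.7%), against 66.1% with SIN3B, 69.1% with both SIN3 proteins and 59.3% over all annotated start sites. The ratio of observed to expected CG dinucleotides had a median of 0.748, against 0.793, 0.849 and 0.625. With over 55% GC and a ratio over 0.65 taken as CpG-island-like, 61.4% of the SAP30-only promoters qualified, against 74.6%, 89.6% and 45.2%. Coding and lncRNA promoters differed, at 70.5% and 31.2%. SAP30 rank moved with this feature too. In quintiles 2, 3, 4 and 5 of the SAP30 rank, 89.1%, 84.3%, 76.9% and 52% of SAP30-only promoters qualified. With SIN3B it was 89.1%, 84.4%, 73.6% and 36.1%, so the lower share against SIN3B was not seen within these quintiles. With both SIN3 proteins it was 90.3%, 89.1%, 78.9% and 12.5%, so that order was turned in the weakest quintile only.

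Short motifs were counted in the same windows on both strands, 13 in all. The motif of ETS factors (CCGGAAG), which are known to bind many housekeeping promoters, was held by 8.94% of SAP30-only promoters, against 22.4% with SIN3B, 23.4% with both SIN3 proteins and 13.5% over all start sites. Within quintiles 3, 4 and 5 of the SAP30 rank it was still lower, at 10.2%, 10% and 8.14% against 23.5%, 21.4% and 16.6% with SIN3B. Lower shares at SAP30-only promoters than in the other sets, in the same order, were also found for the NRF1 site (GCGCNTGCG) with 6.26%, 13.3%, 14.3% and 9.17%, the YY1 site (AAGATGGCG) with 1.19%, 4.91%, 3.83% and 2.45%, and the cyclic AMP element (TGACGTCA) with 1.22%, 2.68%, 3.07% and 2.12%. The site of AP-1 (TGANTCA), the dimer of FOS and JUN proteins, was held by 15.5%, 9.3%, 5% and 10.7%. Within quintiles 3, 4 and 5 of the SAP30 rank it was in 10.2%, 9.63% and 18.7% of SAP30-only promoters against 6.63%, 9.95% and 18.4% with SIN3B, so that a higher share was seen in quintile 3 but not in quintiles 4 and 5.

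GC boxes stood in 71.7% of SAP30-only promoters, 77.7% with SIN3B, 87.4% with both and 53.7% of all start sites. The CCAAT box (CCAAT) stood in 31%, 36.7%, 37.9% and 45.2%, and its longer form, which lies over the same letters (GATTGGNTN), in 3.57%, 5.32%, 7.19% and 6.78%. A TATA box (TATAAA) was in 7.48%, 4.91%, 3.91% and 15.7%, and an E-box (CACGTG) in 11.5%, 10.5%, 20.1% and 10%. The TEAD (GGAATG), RUNX (TGTGGTT) and E2F (TTTGGCGC) sites were in 18.6%, 4.69% and 0.748% of SAP30-only promoters and 17.7%, 4.58% and 1.15% of those with SIN3B. For GC boxes the order against SIN3B was turned within quintiles 2, 3, 4 and 5 of the SAP30 rank. There they stood in 90.9%, 88%, 82.8% and 65.1% of SAP30-only promoters against 88.1%, 82.7%, 76.8% and 56.1% with SIN3B. A match is a string of letters and not a bound site.

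To show what an AP-1 site at a SAP30 peak looks like, 3 promoters are printed, the best-ranked by SAP30 among 118 whose AP-1 match lay within 50 bp of the SAP30 centre. The 7 letters of the match are in capitals, with 40 bases at each side, GRCh37 plus strand. A further AP-1 match at the left end of the ENSG00000259277 run, farther than 50 bp from the centre, is left in lower case.
ENSG00000225146, chr7:1068627-1068713: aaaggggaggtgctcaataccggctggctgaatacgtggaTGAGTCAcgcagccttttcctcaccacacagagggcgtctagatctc
ENSG00000259277, chr15:29269753-29269839: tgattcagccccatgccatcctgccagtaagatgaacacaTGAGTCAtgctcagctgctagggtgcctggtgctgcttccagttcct
RFFL, chr17:33390761-33390847: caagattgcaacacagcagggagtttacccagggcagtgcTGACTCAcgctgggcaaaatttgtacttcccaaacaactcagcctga
The first pair are lncRNA promoters and RFFL encodes a ubiquitin ligase, and the matches lay 44, -36 and 46 bp from the SAP30 centre.

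SAP30-only promoters belonged to 2271 protein-coding genes, 18.4% of the 12350 with SAP30 at a promoter, and to 1036 of 3987 lncRNA genes (26%). Of the coding genes, 1963 had only such SAP30 promoters, and 308 had a further promoter with SIN3. The kinds of genes differed strongly. Housekeeping groups had few. None of the 81 cytosolic ribosomal protein genes with SAP30 was in the class, 3 of 78 mitochondrial ribosomal protein genes (MRPL34, MRPS9, MRPL28), 1 of 40 proteasome genes (PSMA1) and 1 of 48 genes of DNA replication and E2F targets (POLE4). Of the AP-1 and early response genes it was 3 of 28 (NR4A1, NR4A2, KLF7), and of the ZNF zinc finger genes 46 of 423 (10.9%).

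Cell-surface, signaling and developmental genes had many. HOX genes, the patterning factors, counted 5 of 7 (71.4%), ion channel genes 23 of 33 (69.7%, among them the potassium channel gene KCNC4), cadherins and protocadherins 8 of 13 (61.5%) and keratins 4 of 6 (66.7%, KRT19, KRT80, KRT7 and KRT16). Ligands and receptors of the PDGF, VEGF, FGF and EGF families counted 13 of 26 (50%), collagens 8 of 17 (47.1%), claudins and other tight junction genes 6 of 13 (46.2%), and the axon-guidance families of semaphorins, plexins, ephrins and netrins 22 of 48 (45.8%). Cytokines and chemokines counted 9 of 20 (45%), interferon-stimulated genes 14 of 32 (43.8%, among them MX1, IRF5 and ISG15), WNT and Notch genes 7 of 17 (41.2%), TGF-beta and BMP genes 12 of 31 (38.7%) and matrix proteases 11 of 29 (37.9%). Nuclear receptors (10 of 30), small GTPase regulators (25 of 76), GPR and ADGR receptors (12 of 38), histone genes (10 of 32), solute carriers (46 of 182) and integrins and laminins (5 of 21) lay between, at 33.3%, 32.9%, 31.6%, 31.2%, 25.3% and 23.8%. Of the SIN3 complex's own subunits, RBBP7 and MORF4L1 had a SAP30-only promoter, 2 of 18. Most of the genes of the HOX, ion channel, cadherin and keratin lists had no SAP30 at a promoter, with 17.9%, 24.6%, 14.9% and 10.9% bearing it, against 61.4% of all coding genes.

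**Figure D2:**
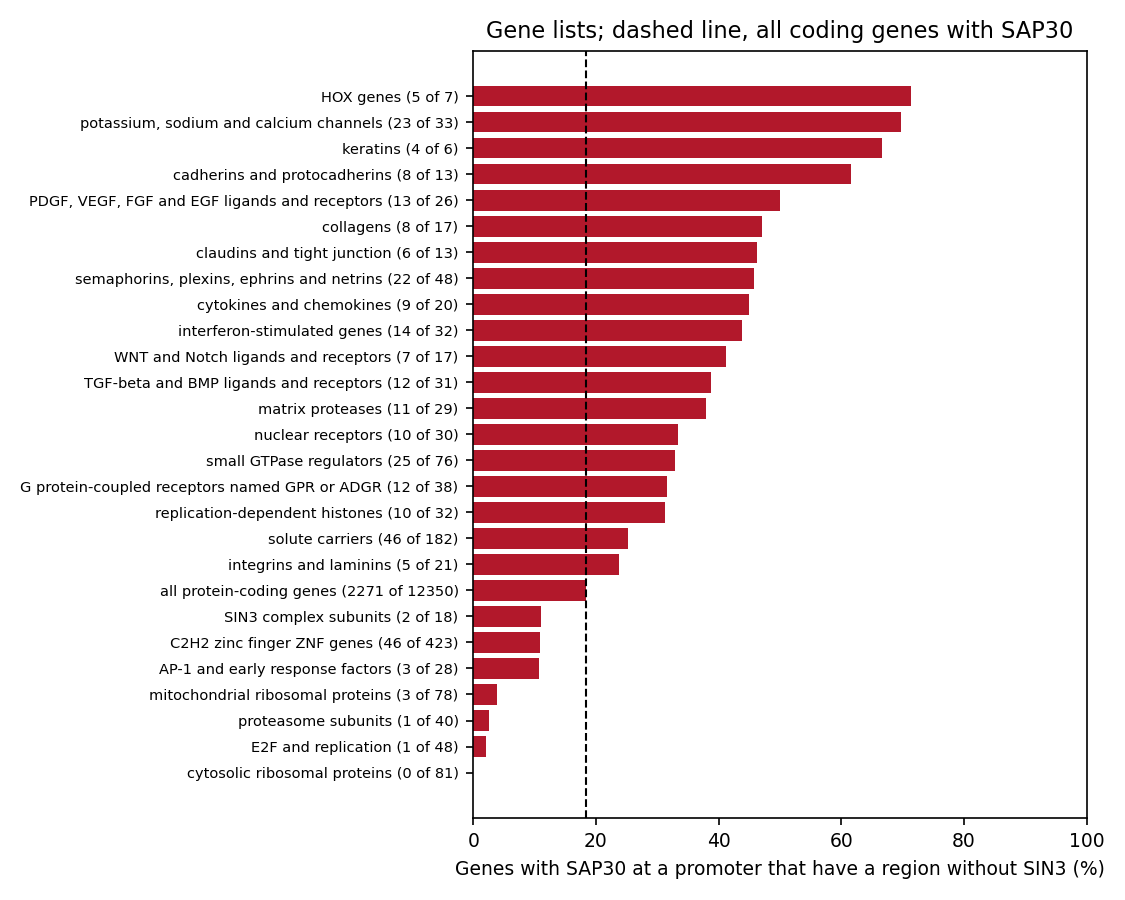
Percent of the genes with SAP30 at a promoter that have a SAP30-only promoter, for each gene list, with a dashed line at the 18.4% of all 12350 coding genes with SAP30. HOX genes reach 71.4% (5 of 7) and cytosolic ribosomal protein genes 0% (0 of 81).

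The chromosomes did not hold equal shares. On chromosome X, 159 of 412 SAP30 promoters (38.6%) were SAP30-only, the highest share. Chromosomes 21 and 22 followed with 35.6% and 32.6%, and chromosome 20 had the lowest, 16.5%. At the other SAP30 promoters the median SAP30 rank was 30.2% on chromosome X and 15.9% on the autosomes. The X-linked SAP30-only promoters had Pol II more often than the autosomal ones, with 78.6% and 83% in the parental libraries and 76.1% and 69.2% in SAP30-KO1, against 53.1%, 58.6%, 44.4% and 38.4%.

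Pol II was less frequent at SAP30-only promoters than at the other SAP30 promoters in every library. A Pol II summit fell into 54.4% and 59.9% of them in the parental libraries and 46.1% and 40.1% in SAP30-KO1. The same libraries gave 90.1%, 91.3%, 88.5% and 85% at SAP30 and SIN3B promoters and 93.2%, 92.9%, 94.8% and 92.9% at promoters with all 3 proteins. The mean difference over the 4 libraries was -38.6 and -43.3 percentage points, lower in 4 of 4 libraries each (exact two-sided sign-flip permutation p = 0.125, the smallest that 4 libraries can give). Within quintiles of the SAP30 rank it was smaller, -17.3 and -13.1 points. In the weakest quintile SAP30-only promoters had Pol II in 42.9%, 49.2%, 34.4% and 28.9%, and the 56 promoters with all 3 proteins in 42.9%, 48.2%, 42.9% and 42.9%, so that the parental values there were nearly equal.

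Promoters with H3K4me3 in both parental libraries but no SAP30 consensus region gave a further comparison. Among these 1139, Pol II was found in 23.7%, 27.5%, 25.8% and 22.8%, which was 25.2 points below the SAP30-only promoters on average (exact sign-flip permutation p = 0.125). SAP30-only promoters thus stood between these and the SAP30 promoters with SIN3.

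Both histone marks were common at SAP30-only promoters. H3K4me3 stood at 81.4% and 81.8% in the parental line and 78.3% and 78.3% in SAP30-KO1, and H3K9Ac at 83.6% and 82%, and 78.6% and 81.6%. Mean differences from the SAP30 and SIN3B promoters were -10.5 points for H3K4me3 and -10.2 for H3K9Ac, and from the promoters with all 3 proteins -9.93 and -7.95 (exact sign-flip permutation p = 0.125 for each). Within quintiles of the SAP30 rank these differences were nearly gone or turned, at -0.29 (p = 0.625) and -2.14 (p = 0.25) against SIN3B and 10.2 and 8.25 against all 3 proteins (exact sign-flip permutation tests). Pol II thus remained lower on average within quintiles of the SAP30 rank. For the histone marks the order against promoters with both SIN3 proteins changed between quintiles. In quintile 3, H3K4me3 stood at 90.7%, 89.8%, 91.2% and 91.2% of SAP30-only promoters in the 2 parental and 2 SAP30-KO1 libraries, and at 91.8%, 91.5%, 92% and 94.3% of promoters with both. In quintile 5 it stood at 76.5%, 77.5%, 72.5% and 72.4% against 41.1%, 26.8%, 35.7% and 41.1%, the latter from only 56 regions.

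**Figure D3:**
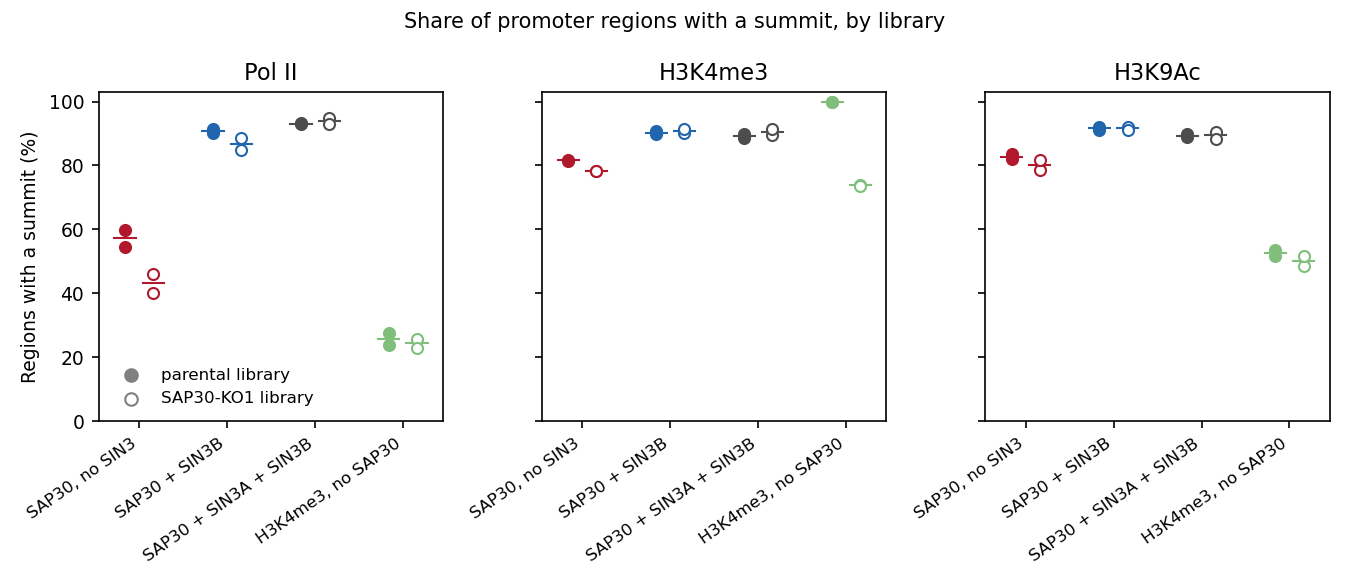
Percent of promoter regions with a Pol II, H3K4me3 or H3K9Ac summit in each of the 2 parental and 2 SAP30-KO1 libraries (filled and open points, with the mean as a short line), by promoter class. Pol II at SAP30-only promoters lies between 40.1% and 59.9%, against 85% to 94.8% at SAP30 promoters with SIN3B or both SIN3 proteins; the H3K4me3 promoters without SAP30 were selected on parental H3K4me3 and are at 100% there by construction.

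In the parental line, Pol II, H3K4me3 and H3K9Ac were all found in both libraries at 1343 SAP30-only promoters (45.7%). Both histone marks without Pol II in both libraries marked 668 (22.7%). H3K4me3 alone stood at 284 (9.66%), H3K9Ac alone at 204 (6.94%), and none of the 3 was found in both libraries at 296 (10.1%). Over both lines, 864 (29.4%) had a summit in all 12 libraries and 117 (3.98%) in none. The fully marked ones had the stronger SAP30, with a median rank of 36.1% against 62.3%. A coding start was less common where only H3K9Ac (48%) or no mark (54.1%) was found than where all 3 were (83.8%). CpG-island-like sequence was found at 78% of the promoters with Pol II in all 4 libraries, 64.4% of those that lost it and 46% of those without Pol II in any of the 4 libraries.

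Polymerase at SAP30-only promoters was at times very strong. Among the 8 with the best parental Pol II ranks and Pol II in all 4 libraries were TMSB4X, the gene of the actin-binding peptide thymosin beta 4, and the histone genes H2BC18 and H3C10. TMSB4X had Pol II ranks of 0.969% and 0.735% in the parental line and 0.82% and 0.845% in SAP30-KO1, with SAP30 at only 73.3% and 53.9%. H3C10 had 0.998% and 1.02%, then 1.83% and 2.69%. The other 5 were lncRNA promoters, led by LINC01719 with 0.0145% and 0.0174%, then 0.0814% and 0.0407%. Histone genes and some lncRNAs belong to families of near-identical copies, so reads there may be shared between copies.

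The comparison between the lines asked whether polymerase and marks at these promoters differ when SAP30 is missing. Pol II was found at 57.2% ± 3.85 (SD, n = 2 libraries) of SAP30-only promoters in the parental line and 43.1% ± 4.26 in SAP30-KO1, a difference of -14.1 points. Both SAP30-KO1 libraries were below both parental libraries (exact two-sided permutation p = 0.333, the smallest that 2 against 2 libraries can give, so no comparison of this kind can pass 0.05). At the 10191 other SAP30 promoters the values were 91.5% and 92% against 91.6% and 89%, a difference of -1.47 points (exact permutation p = 0.667). The gap between the classes widened by 12.6 points (a change of -12.6, exact permutation p = 0.333). In quintile 4 of the SAP30 rank the difference was -15 points at SAP30-only promoters. SAP30 and SIN3B promoters there had 90.9% and 92.5%, then 88.8% and 83.9%. In the weakest quintile it was -14.4 points, beside 72.3% and 77.2%, then 66.9% and 62.9% with SIN3B. With all 3 proteins, quintile 4 had 88.9%, 88.9%, 90.1% and 86.5%. SIN3B promoters with weak SAP30 thus also had Pol II less often in SAP30-KO1. Fewer cells with polymerase at a promoter and less polymerase per cell cannot be told apart in these bulk samples. The Pol II lists also differed in score. Their median score was 14 and 15.5 in the parental libraries and 7.21 and 5.8 in SAP30-KO1. Their lengths were 20736 and 23002, then 23342 and 22123 summits. The part of these lower scores in the Pol II difference between the lines was not tested.

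Histone marks differed less. H3K4me3 was lower in SAP30-KO1 by 3.3 points (-3.3, groups apart) and H3K9Ac by 2.65 points (-2.65, groups apart), each with exact permutation p = 0.333. At the other SAP30 promoters the differences were 0.878 and 0.054 points. The change of the difference between the classes was -4.18 points for H3K4me3 (exact permutation p = 0.333) and -2.71 for H3K9Ac (p = 0.667 by the same exact test). A lower Pol II share was found in every division of the SAP30-only promoters made here except the 5 of the best SAP30 quintile, where it was 80% in every library. It was -14.1 points without any SIN3 summit and -14 with one, -14.5 at coding and -12.6 at lncRNA promoters, and -8.15 on chromosome X.

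Counting promoters one by one, a peak is called lost when both parental libraries have a summit and neither SAP30-KO1 library does, and gained in the reverse case. Pol II was lost at 222 of the 1489 SAP30-only promoters that had it in both parental libraries (14.9%), where 7.09% of all SAP30 consensus regions lost it. It was gained at 13 of 1017 (1.28%), against 1.65% of all SAP30 regions. With SIN3B the lost share was 2.6%, with all 3 proteins 0.837%, over all other SAP30 promoters 1.68% (152 of 9067), at H3K4me3 promoters without SAP30 11.5%, and at SAP30-only regions away from promoters 27.7%. H3K4me3 was lost at 79 of 2354 (3.36%, background 2.52%) and gained at 9 of 2246 (0.401%, background 0.891%). H3K9Ac was lost at 60 of 2264 (2.65%, background 2.29%) and gained at 29 of 2190 (1.32%, background 1.8%). At the other SAP30 promoters, H3K4me3 was lost at 0.416% (37 of 8895) and H3K9Ac at 0.759% (67 of 8829), and at SAP30-only regions away from promoters at 10.9% and 4.82%. Lost shares at SAP30-only promoters were thus above those of the other SAP30 promoters for each of the 3 marks, while beside all SAP30 regions, which include those away from promoters, only Pol II stood clearly higher.

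Weak peaks are lost more readily than strong ones, so the lost share was read within quintiles of the parental Pol II rank. In the best 3 quintiles no SAP30-only promoter of 54, 94 and 176 lost Pol II. In quintile 4, 7 of 355 (1.97%) did, against 10 of 1755 other SAP30 promoters (0.57%), and in the weakest 215 of 810 (26.5%), against 138 of 1303 (10.6%). Almost all lost peaks were thus among the weakest parental peaks, and the SAP30-only promoters lost them more often than other promoters of the same quintile. Ranks inside a quintile were not matched. The weakest quintile held 810 of the 1489 SAP30-only promoters and 1303 of the 9067 others, so a difference in peak strength within it was not tested. The weakest quintile gave the same order for H3K4me3, with 79 of 1476 (5.35%) against 15 of 774 (1.94%), and for H3K9Ac, with 57 of 1413 (4.03%) against 17 of 806 (2.11%).

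**Figure D4:**
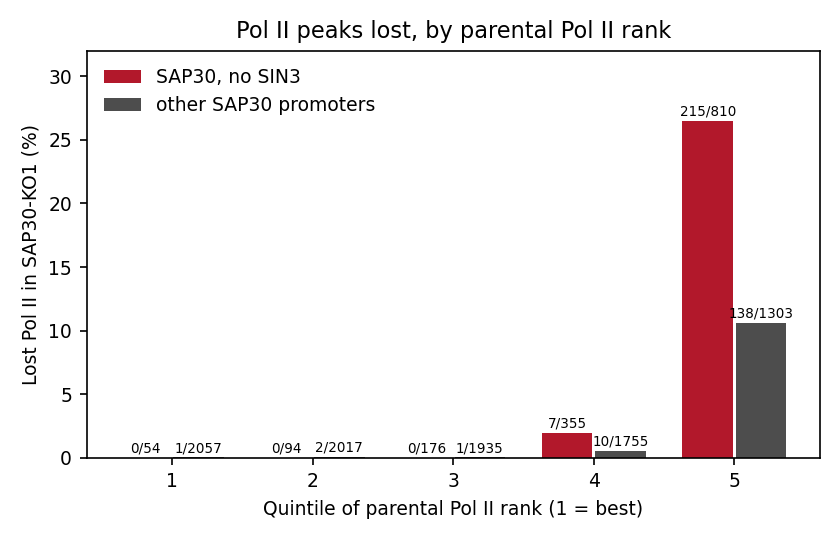
Percent of promoters with Pol II in both parental libraries that had none in either SAP30-KO1 library, by quintile of the parental Pol II rank (quintile 1 is the best). In the weakest quintile 26.5% of SAP30-only promoters (215 of 810) and 10.6% of other SAP30 promoters (138 of 1303) lost it; in the best 3 quintiles no SAP30-only promoter did.

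The lost share also moved with the strength of SAP30 and with SIN3 summits. From quintile 2 to the weakest quintile of the SAP30 rank, 4.26%, 6.98%, 10.1% and 20.8% of SAP30-only promoters lost Pol II. Without a SIN3 summit in any library it was 123 of 583 (21.1%), and with one 99 of 906 (10.9%). Where the parental histone marks were not both present it was 28.8%, and where both were present 13.4%. On chromosome X it was 10 of 122 (8.2%), and on the autosomes 212 of 1367 (15.5%). SAP30 rank, SIN3 summits and parental Pol II rank were not independent of each other.

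Loss of Pol II mostly left the histone marks in place. Of the 222 promoters, 175 (78.8%) had H3K4me3 in all 4 libraries and 178 (80.2%) H3K9Ac, while 11 lost H3K4me3 and 7 H3K9Ac. Of the 955 that had Pol II in all 4 libraries, the shares were 95% and 93%. All 3 marks were lost at 2 promoters, ENG and ENSG00000290078, and exactly 2 marks at 20, among them those of CXCL8, HES2, LSR, NFATC1, TAGLN and MTUS1 (these genes were picked after their values were seen). ENG encodes endoglin, a TGF-beta co-receptor of endothelial cells. Its Pol II ranks were 56.6% and 50.3%, its H3K4me3 ranks 54.7% and 57.4% and its H3K9Ac ranks 26% and 24.7% in the parental line, with no summit in SAP30-KO1, and SAP30 ranked 22.3% and 17.8% (summits between chr9:130616610-130616646).

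The best-ranked lost Pol II peaks were those of SUSD5, the lncRNA gene ENSG00000286931, CD40 and CACNA2D4. SUSD5 had Pol II at 49.3% and 29.9% in the parental line and none in SAP30-KO1, while H3K4me3 remained at 36.7%, 37.3%, 47.2% and 41.3%. CD40, a receptor of the TNF receptor family, had Pol II at 41.1% and 47.6%, then none. CACNA2D4, a calcium channel subunit, had 50.3% and 38.9%, then none, and H3K4me3 in no library. The best-ranked gained Pol II peaks were at TRAK1, LINC01521, PUS7L and TEKT3. TRAK1, an adaptor of mitochondrial transport, had none in the parental line and 37.1% and 36.7% in SAP30-KO1, with H3K4me3 ranks of 6.77%, 3%, 5.91% and 6.88% throughout.

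Among the lost H3K4me3 peaks, MFAP2, a microfibril protein gene, ranked 53.4% and 51.8% in the parental line. Among the gained ones, PHF11 had none in the parental line and 55.7% and 55.8% in SAP30-KO1. For H3K9Ac, FOXK1, a forkhead factor gene, had strong peaks at 2.07% and 5.74% and none in SAP30-KO1, while its Pol II ranks were 54.4%, 31.8%, 39.9% and 58.5% and its H3K4me3 ranks 17.6%, 31.9%, 12.7% and 23.6%. MSRA, methionine sulfoxide reductase, had no parental H3K9Ac summit and 11% and 17.4% in SAP30-KO1. In a list of 1-bp summits, a broad domain whose summit moves out of the region is counted as lost.

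By gene list, 6 of the 9 promoters of growth factor ligands and receptors with parental Pol II lost it, beside 175 of 1224 (14.3%) over all coding SAP30-only promoters. They were FGF20, FGFR3, FGFR4, KDR, PDGFD and PDGFRB. The counts by list were not divided by parental Pol II rank. In its weakest quintile, 215 of 810 SAP30-only promoters (26.5%) lost Pol II. KDR, the VEGF receptor 2, had Pol II ranks of 49.6% and 67.2% in the parental line. FGFR3 had 53.2% and 50.3%, FGFR4 83.3% and 58.4%, FGF20 76.5% and 75.3%, and PDGFRB, a receptor of platelet-derived growth factor, 64.6% and 74.5%. H3K4me3 stood at all 6 in every library. Its rank was worse in both SAP30-KO1 libraries than in both parental ones at 5 of them, from FGF20 (47.4% and 48.1%, then 56% and 51.2%) to PDGFRB (66.1% and 67.8%, then 91.5% and 94.2%), and overlapped at FGFR4 (62.2% and 62.8%, then 74.7% and 59.6%). Such a worse rank was also found at 50.8% of all SAP30-only promoters with H3K4me3 in all 4 libraries. Over all SAP30 regions it was 34.5%. Pol II was lost at 3 of 4 promoters of TGF-beta and BMP genes (BMP8B, GDF15, INHBA), 3 of 7 of ion channels (among them CACNA2D4 and CACNG7) and 2 of 3 of cadherins (PCDH20, PCDHGB1).

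Among other lists it was 2 of 7 promoters of GPR and ADGR receptors, 1 of 3 collagen promoters (COL19A1), 1 of 11 promoters of small GTPase regulators (ARHGEF6), 3 of 38 zinc finger promoters, 3 of 22 solute carrier promoters, 1 of 12 semaphorin and plexin promoters (PLXNB1), 0 of 7 interferon-stimulated and 0 of 7 histone promoters, 1 of 5 HOX promoters (HOXB9) and 1 of 4 cytokine promoters. The cytokine promoter was that of CXCL8, the neutrophil chemokine, with Pol II at 83.6% and 71.3% and H3K4me3 at 81.6% and 86.2%, both absent from SAP30-KO1. The lists are small and were chosen with earlier results known, so the counts are descriptions.

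Where a peak was present in all 4 libraries, its rank was compared. H3K4me3 ranks were worse in SAP30-KO1 at SAP30-only promoters. The medians over 2203 regions were 49% and 50.4% in the parental libraries and 56.2% and 51.2% in SAP30-KO1, a difference of 4 points (exact permutation p = 0.333), and the groups did not overlap. Region by region, 1119 (50.8%) had a worse rank in both SAP30-KO1 libraries than in both parental ones, against 34.5% of all SAP30 regions, and 116 (5.27%) a better one, against 9.08%. When peaks were ranked only among SAP30 promoters with the mark in all 4 libraries, the difference was 0.298 points. The lists of H3K4me3 differ in length (24079 and 22393, then 20735 and 23350 summits), and the part of list length in these ranks was not tested beyond that.

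Ranks of Pol II and H3K9Ac that were present in all 4 libraries differed little. Pol II medians over 955 regions were 44.7% and 39.6%, then 41.2% and 45.7% (difference 1.25 points, exact permutation p = 0.667), and the groups overlapped. Pol II was worse in both SAP30-KO1 libraries at 246 (25.8%, background 24.2%) and better at 159 (16.6%, background 15.4%). The sign of the Pol II difference depended on the libraries, at -1.31 without parental replicate 2 and -1 without SAP30-KO1 replicate 2, and at -4.41 when ranked among SAP30 promoters. H3K9Ac medians over 2030 regions were 29.4% and 30.3%, then 32.3% and 29.7% (1.16 points, exact permutation p = 0.667), with 512 worse (25.2%, background 23.8%) and 298 better (14.7%, background 15.2%). Without SAP30-KO1 replicate 1 the H3K9Ac difference was -0.109.

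Of the genes that the study followed, PDGFD, CLDN1, ADM2, NOTCH3 and ARTN had a SAP30-only promoter. RDX and IPO13 had all 3 proteins, HSPA6 had SAP30 and SIN3B, and PDGFB had no SAP30 region at a promoter. By ChIP with quantitative PCR, the study reported SIN3A and SIN3B at PDGFD, CLDN1, RDX and ADM2 in parental cells, and less of both in SAP30-KO1. At PDGFD, CLDN1 and ADM2, SAP30-only thus describes the peak lists and not an absence of the SIN3 proteins. PDGFD encodes platelet-derived growth factor D, an angiogenic ligand. SAP30 ranked 24.8% and 50.6% there (summits between chr11:104034772-104034862), with no SIN3 summit in any library and 1053296 bp to the nearest SIN3 region. Pol II stood at 75.4% and 52.8% in the parental line and was absent from both SAP30-KO1 libraries. H3K4me3 ranked 46.1% and 49%, then 62.7% and 59.1%, and H3K9Ac 50.4% and 31.7%, then 53.5% and 42.4%. The H3K4me3 ranks were thus worse in both SAP30-KO1 libraries with the groups apart, while the H3K9Ac groups overlapped.

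PDGFD lies on the long arm of chromosome 11, and median ranks on this arm were worse in SAP30-KO1 for all 3 marks. Of the SAP30-only promoters there, 13 of 34 (38.2%) lost Pol II, against 209 of 1455 (14.4%) elsewhere. Other arms with few such promoters had high shares too, 5 of 13 (38.5%) on the short arm of chromosome 10 and 5 of 17 (29.4%) on the long arm of chromosome 20. A positive median rank change is a worse rank in SAP30-KO1. On the long arm of chromosome 11 it was 9.65 points for H3K4me3, 7.21 for H3K9Ac and 8.65 for Pol II, against 4.48, 0.872 and 2.72 elsewhere. For both histone marks this was the largest change of any arm, while Pol II changed more on other arms, by 13.4 points on the long arm of chromosome 16 (14 regions). The other SAP30 promoters of the long arm of chromosome 11 had changes of 8.62, 5.32 and 10.5 points, with 2.81% (10 of 356) losing Pol II. What sets the arm apart was not tested, and its part in the values of PDGFD cannot be told apart from that of SAP30. Without the arm the Pol II difference between the lines was -13.8 points over all SAP30-only promoters.

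CLDN1 encodes claudin 1 of tight junctions. No library had a Pol II summit at its SAP30-only promoter. H3K4me3 ranked 33.2% and 33.9%, then 58.2% and 49.8%, and H3K9Ac 37.5% and 36.1%, then 66.4% and 66.4%, so that both marks were worse in SAP30-KO1 with the groups apart. ADM2, the gene of adrenomedullin 2, a vasoactive peptide, had 1 Pol II summit in all, at 81.4% in parental replicate 2. H3K4me3 ranked 55.6% and 52.5%, then 74.3% and 72.9%, and H3K9Ac 58.7% and 76.2%, then none and 92.7%.

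NOTCH3, a Notch receptor, had no Pol II summit, H3K4me3 at 56.1% and 56.1%, then 68.4% and 67%, and H3K9Ac at 50.8% and 37.2%, then 37.9% and 72.8%, where the groups overlapped. ARTN, the neurotrophic ligand artemin, went the other way. Its Pol II ranked 61.6% and 59.3%, then 50.6% and 40.5%, its H3K4me3 52% and 51.8%, then 47% and 40.3%, and its H3K9Ac 24.6% and 26.7%, then 9.15% and 6.96%, all better in SAP30-KO1 with the groups apart. The 5 genes were chosen by the study and their values are descriptions of 2 libraries each.

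**Figure D5:**
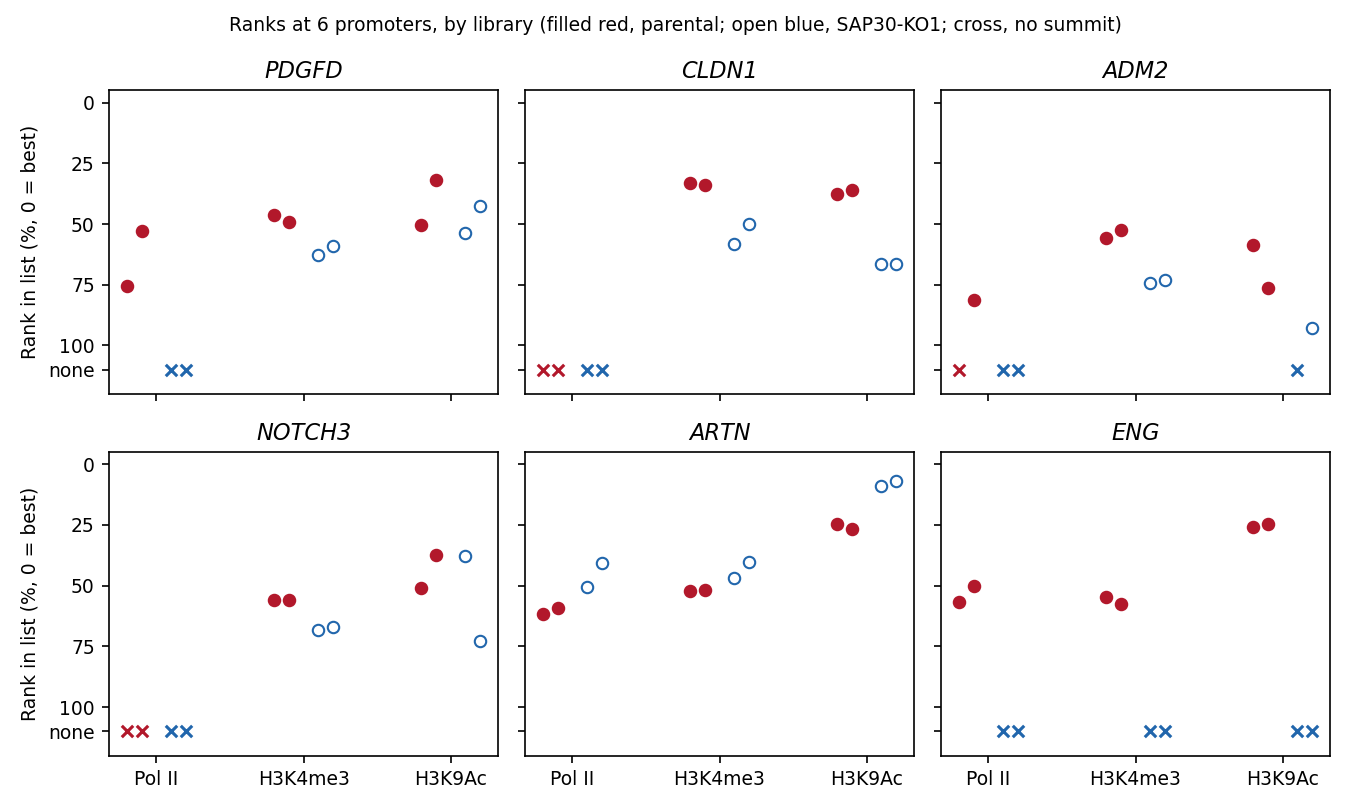
Rank of the Pol II, H3K4me3 and H3K9Ac peaks at named SAP30-only promoters in each of the 2 parental and 2 SAP30-KO1 libraries, in percent of the list with 0 the best; a cross marks a library without a summit. PDGFD and ENG have parental Pol II (75.4% and 52.8%, 56.6% and 50.3%) and none in SAP30-KO1, while all ARTN ranks are better in SAP30-KO1.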

How the data were processed

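ChIP-seq of SAP30, SIN3A, SIN3B, Pol II, H3K4me3 and H3K9Ac was analysed in 18 libraries, 2 for each of 9 groups, and 12 further samples were not analysed here. Per the submitters' notes, reads were handled with FastQC 0.11.2, Bowtie2 2.3.3.1, Picard and MACS2 2.1.0 on build hg19, and the control behind each list is not given in the sources used here. The deposited files hold summits of 1 bp for each library with the −log10 of the authors' q-value as the score. It was used only for ranks within a list and for the median score of the Pol II lists. Read depth is unknown, so no intervals were computed. Names in the Pol II and H3K4me3 lists hold "20" or "20perc", whose meaning is not given in the sources used here.

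Summits were extended by 500 bp, merged, kept as consensus where both replicates contributed and compared by an overlap of 1 bp or more, on 23 chromosomes. Start sites came from GENCODE 44 on GRCh37. A mark was present where a summit fell into the region. Python 3.11.15, NumPy 2.4.6, SciPy 1.17.1 and Matplotlib 3.10.9 were used. Tests were exact two-sided permutations of 2 against 2 libraries and exact sign flips over 4 libraries. Counting of lost peaks was checked on planted losses, which tests the counting only and not the data. Named promoters were the best 10 by SAP30, the best 8 by Pol II, up to 4 lost and 4 gained per mark by rank, up to 4 per gene list by SAP30 rank, the genes the study followed, and 3 each at the SIN3 threshold and at the median SAP30 rank. List genes that lost Pol II were named in addition. Some promoters that this rule names are not reported here. The regions, gene lists and motifs were chosen with earlier results of these data known. Same-numbered libraries of the lines were not paired, with correlations of their deviations of 0.0731 (Pol II), -0.0427 (H3K4me3) and -0.0146 (H3K9Ac).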

Additional observations from a re-analysis of the deposited data

How the results depend on the processing

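Over 22 results and 159 alternatives, 118 kept their direction (or, for counts, stayed within 1.5 times), 33 counts moved further and 8 results reversed. No test used here can give a p below 0.05, so the side of that threshold could not change. Some that kept their direction shrank: within quintiles of the SAP30 rank the Pol II differences from SAP30 promoters with SIN3B and with both were -17.3 and -13.1 points and the H3K4me3 difference from SIN3B -0.29, and the H3K4me3 rank change was 0.298 among SAP30 promoters. The number of SAP30-only promoters was 1539 with SIN3 regions of either replicate, 1481 with the 6 lists cut to equal length, 1375 with the better-ranked 50% of each SAP30 list, and 2149 to 3511 with 1 library left out. The Pol II difference between the lines ran from -17.1 to -11.1 points with 1 library left out and from -15.7 to -9.94 otherwise. With the better-ranked 50% of the lists that hold the peak, 4 SAP30-only promoters lost and 1 gained Pol II, 0 lost and 1 gained H3K4me3, and 13 lost and 5 gained H3K9Ac. With 1000 bp at each side of a summit, 8 gained Pol II, 2 H3K4me3 and 18 H3K9Ac. With 500 bp at each side of the SAP30 centre, chosen after seeing the data, 21 gained Pol II and 14 H3K4me3. With 1 library left out, which leaves 1 library in that line, 291 to 428 lost and 25 to 64 gained Pol II, 95 to 119 lost and 14 to 28 gained H3K4me3, and 110 to 179 lost and 52 to 106 gained H3K9Ac. The change of rank reversed for Pol II at -1.31 without parental replicate 2, -1 without SAP30-KO1 replicate 2 and -4.41 when ranked among SAP30 promoters (range -1.31 to 3.81 with 1 library left out), and for H3K9Ac at -0.109 without SAP30-KO1 replicate 1 (range -0.109 to 2.43). Within quintiles of the SAP30 rank, the difference from promoters with both SIN3 proteins reversed to 10.2 points for H3K4me3 and 8.25 for H3K9Ac, or 10.1 and 8.89 over quintiles with at least 20 regions of each class. The cause was not tested. With the replicate number as a block, the differences between the lines were the same, -14.1, -3.3 and -2.65 points, with an exact sign-flip permutation p of 0.5, the smallest that 2 pairs can give; the numbers are not known to pair the libraries. Without read counts the depth is unknown, and the exact permutation of 2 against 2 libraries used between the lines cannot give a p under 0.333.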
